A study of Mus musculus with 9 samples.

Results

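Contacts of the Dbp locus with mouse chromosomes 1 and 3 were described from 9 microarrays. Members were all probes that the deposited files place on chromosome 1 or 3, which gave 53858 of 384942 probes, 29787 on chromosome 1 and 24071 on chromosome 3, in 349 of 2536 windows of 1 Mb. The viewpoint lies on chromosome 7, so every contact described here is between chromosomes. Both chromosomes were chosen by their low share of high probes, probes of high log2 ratio, in these same arrays. That low share is therefore given as a description, with no test.

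Dbp encodes a PAR bZIP transcription factor, a clock output gene that is driven by the BMAL1 and CLOCK activators. Chromosomes occupy separate territories in the interphase nucleus, and most ligation products of a locus come from its own chromosome. Contacts with other chromosomes are rare per cell and tend to gather in active, gene-rich stretches, while gene-poor chromatin often lies at the nuclear periphery. Chromosome conformation capture-on-chip (4C) reads the fragments ligated to one chosen fragment, here at Dbp, by inverse PCR and hybridization.

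All samples were mouse embryonic fibroblasts (MEFs) from C57BL/6 embryos taken at embryonic day 13 and synchronized with dexamethasone for 2 h. Circadian times (CT) count hours after dexamethasone. Wild-type (WT) line 1 gave arrays at CT22, CT26, CT30, CT34 and CT46, and both a Bmal1-/- line and the independent WT line 2 gave arrays at CT22 and CT34, 1 array each. The labels trace line 1 and Bmal1-/- to siblings of 1 mating scheme, grown with NCS and FBS, and line 2 to another cross, grown with FBS. The single Bmal1-/- line and the genotype are therefore one factor, and cross, serum and line 2 cannot be told apart.

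Each array compared 4C DNA (Cy5) with digested genomic DNA of the same cells (Cy3), and each value is a log2 ratio, with no dye swap. A probe was called high when its log2 ratio exceeded the 95th percentile of its own array over probes off chromosome 7. That threshold lay between 1.67 and 2.11 in the line 1 arrays, at 2.21 and 2.80 in the Bmal1-/- arrays, and at 0.51 and 0.53 in the line 2 arrays. On the 2 chromosomes the lowest high probe and the highest probe not called high had log2 ratios of 1.83 and 1.82 in line 1 at CT22, 2.81 and 2.80 in Bmal1-/- at CT34, and 0.52 and 0.51 in line 2 at CT22. The SD of the log2 ratios on the 2 chromosomes was between 0.64 and 0.74 in line 1, against 0.76 and 0.93 on the Bmal1-/- arrays and 0.33 and 0.34 on those of line 2. A high probe thus stands for a rank within its array, and the same rank covers different log2 ratios in the 3 lines.

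Chromosomes 1 and 3 held fewer high probes than the rest of the genome off chromosome 7 on every array. In line 1 the share over both was 3.72% at CT22, 3.45% at CT26, 3.83% at CT30, 3.93% at CT34 and 3.92% at CT46. Over the other chromosomes off chromosome 7 it ranged from 5.18% to 5.24% in the same arrays. The Bmal1-/- arrays had 4.17% and 3.93% on the 2 chromosomes against 5.13% and 5.18% elsewhere. The gap was narrowest in line 2, with 4.31% and 4.41% against 4.88% and 4.87%.

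Chromosome 1 had 4.09%, 3.55%, 4.01%, 4.20% and 4.06% high probes in line 1 at CT22, CT26, CT30, CT34 and CT46, a mean of 3.98% ± 0.249 (SD, n = 5). It had 4.26% and 4.00% in Bmal1-/- at CT22 and CT34, and 4.29% and 4.39% in line 2. Chromosome 3 had 3.26%, 3.32%, 3.60%, 3.60% and 3.75% in line 1 at the same times, a mean of 3.51% ± 0.206 (SD, n = 5). It had 4.06% and 3.84% in Bmal1-/- and 4.32% and 4.43% in line 2. Chromosome 3 thus lay below chromosome 1 on all 7 arrays of line 1 and Bmal1-/-, and just above it on both line 2 arrays.

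**Figure D1:**
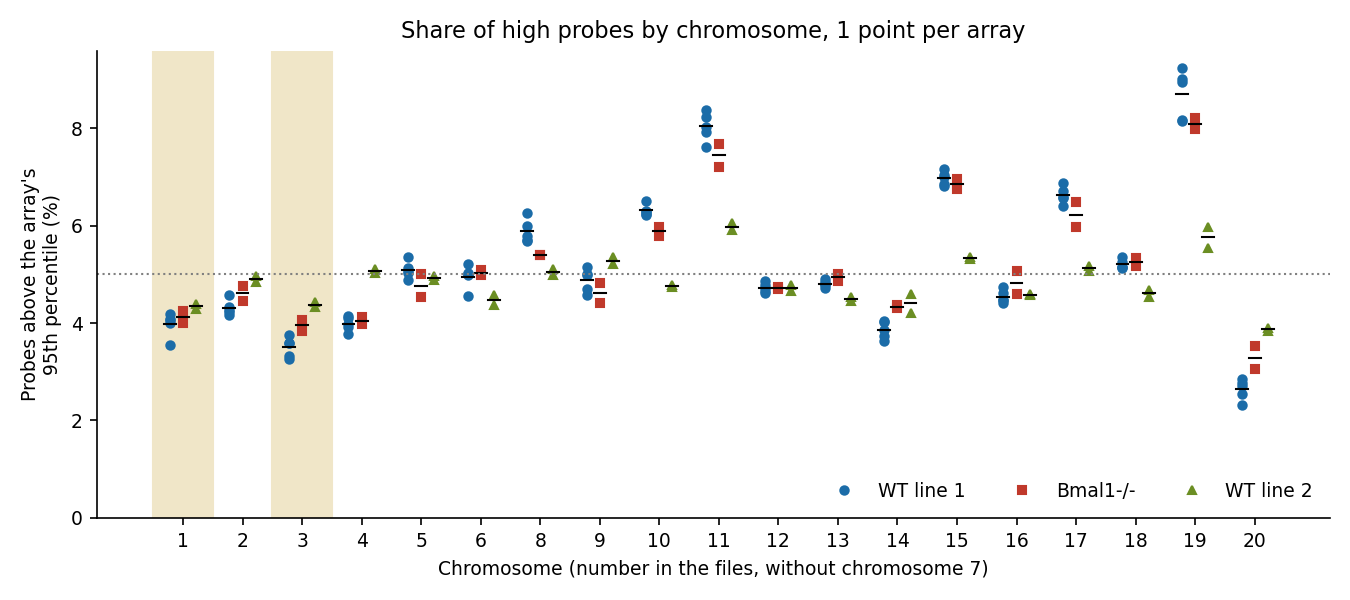
Share of probes above the array's 95th percentile (%, vertical axis) for each chromosome as numbered in the files, without chromosome 7. Each point is 1 array, short bars are means of the 5 line 1, 2 Bmal1-/- and 2 line 2 arrays, the dotted line marks 5%, and the shaded columns are chromosomes 1 and 3, whose line 1 means are 3.98% and 3.51%.

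Neither chromosome was the lowest. Among 19 chromosomes with over 1000 probes, chromosome 20 of the files had the smallest share on all 9 arrays, with a line 1 mean of 2.64% ± 0.213 (SD, n = 5). Chromosome 3 ranked 2 and chromosome 1 ranked 4 from the lowest in line 1, with chromosome 14 (3.86%) between them and chromosome 4 (3.98%) level with chromosome 1. On single arrays chromosome 1 ranked between 3 and 5 from the lowest, and chromosome 3 between 2 and 4. In line 2 chromosome 4 left this group, with a mean of 5.07%, whereas chromosomes 1 (4.34%) and 3 (4.38%) ranked 2 and 3 from the lowest.

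Differences between the lines in these shares are given as descriptions, since the exact two-sided permutation test of 2 against 5 arrays cannot give a p below 0.0952. The share on chromosome 3 was higher in Bmal1-/- than in line 1 by 0.447 percentage points and in line 2 by 0.872, with no overlap between arrays in either comparison. On chromosome 1, line 2 was higher than line 1 by 0.362 points with no overlap. Bmal1-/- and line 1 overlapped on chromosome 1, where the difference was 0.145 points. Such gaps were not particular to chromosomes 1 and 3. Among the ranked chromosomes, Bmal1-/- also lay above line 1 without overlap on chromosomes 14 and 20, and below it on 8 and 10. Line 2 also lay above line 1 without overlap on chromosomes 2, 4, 9, 14 and 20. It lay below line 1 without overlap on chromosomes 8, 10, 11, 13, 15, 17, 18 and 19.

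Over time the shares moved by less than 1 percentage point. In line 1, chromosome 1 was lowest at CT26, where the exact Clopper-Pearson 95% interval of 3.34% to 3.77% lay below that of CT34 (3.97% to 4.43%). Chromosome 3 was lowest at CT22 (3.04% to 3.49%) and highest at CT46 (3.51% to 4.00%), although both times mark a similar phase 24 h apart. These intervals cover counting error only, and line 1 had 1 array per time, so the spread between repeat arrays at 1 time was not measured. From CT22 to CT34, the share on chromosome 1 changed by 0.111 points in line 1 and 0.0974 in line 2, but by -0.262 in Bmal1-/-. On chromosome 3 the same change was 0.337 points in line 1, 0.108 in line 2 and -0.220 in Bmal1-/-.

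**Figure D2:**
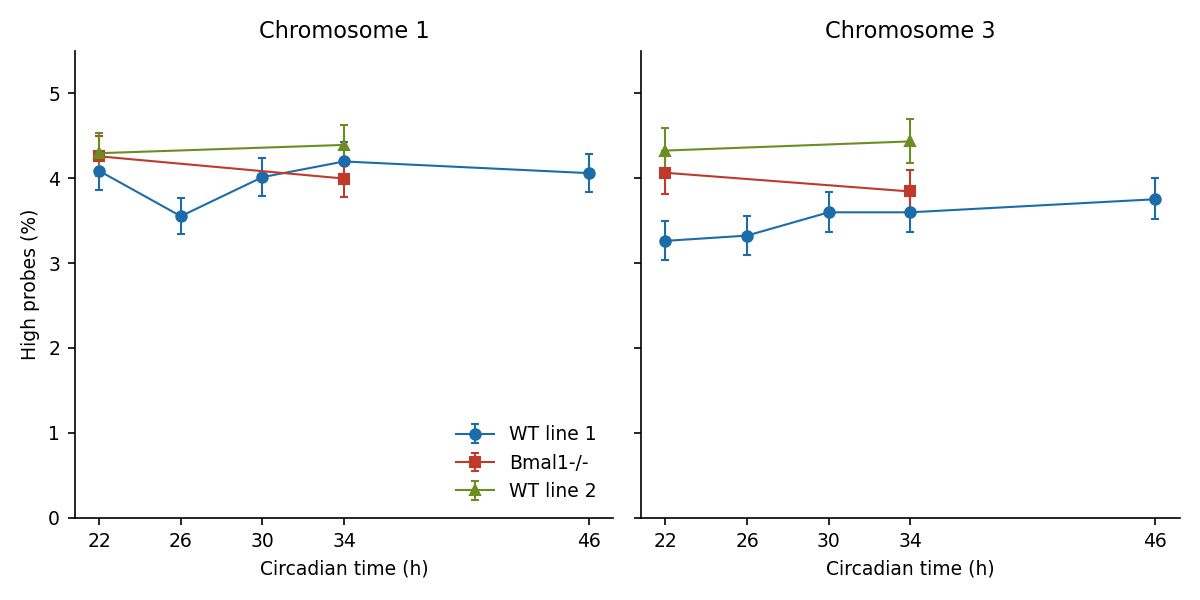
Share of high probes (%, vertical axis from 0) on chromosome 1 (left) and chromosome 3 (right) by circadian time (h). Each point is 1 array with its exact Clopper-Pearson 95% interval for counting error, and lines join arrays of 1 cell line; on chromosome 3 the line 1 points between 3.26% and 3.75% lie below those of Bmal1-/- and line 2.

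The low share was not spread evenly. In windows of 1 Mb with at least 20 probes, chromosome 1 had 192 windows and chromosome 3 had 157, with a median of 157 probes per window over both. The window median of the mean line 1 share was 3.09% on chromosome 1 and 2.58% on chromosome 3, against 3.66% over all 2399 windows off chromosome 7. A mean line 1 share above 5% was found in 87 of the 349 windows, 50 on chromosome 1 and 37 on chromosome 3, where 36.4% of all windows off chromosome 7 passed this mark. A mean above 10% was found in 13 windows, 9 on chromosome 1 and 4 on chromosome 3, where 10.9% of all windows did.

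A window was called a contact on 1 array when a one-sided binomial test found more high probes than the share off chromosome 7, at an adjusted p under 0.05 over all windows off chromosome 7 of that array. Line 1 gave 16 contact windows on the 2 chromosomes at CT22 (12 and 4), 16 at CT26 (10 and 6), 15 at CT30 (10 and 5), 12 at CT34 (10 and 2) and 18 at CT46 (11 and 7). These are 4.58%, 4.58%, 4.30%, 3.44% and 5.16% of the 349 windows, against 10.5%, 12.4%, 11.6%, 9.92% and 11.2% of all windows off chromosome 7. Bmal1-/- gave 12 windows (8 and 4) at CT22 and 10 (6 and 4) at CT34, where 7.34% and 9.34% of all windows were called. Line 2 gave 0 at CT22 and 1 at CT34, where only 0.542% and 1.67% of all windows were called. A call refers to its own array and compares no conditions.

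Few windows were contacts throughout. Of the 349 windows, 33 were called at 1 or more times of line 1, against 19.4% of all windows off chromosome 7. Called at all 5 times were 3 windows, chr1:59000001-60000000, chr1:89000001-90000000 and chr3:88000001-89000000, against 5.09% of all windows off chromosome 7. The windows on chromosome 1 from 59000001 and on chromosome 3 from 88000001 were also called on both Bmal1-/- arrays. The build of these coordinates is not stated in the labels or file headers used, so no genes are assigned to them. None of the 3 was called in line 2.

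The strongest contact of the 2 chromosomes was chr3:88000001-89000000, with 125 probes. Its share of high probes was 23.2%, 18.4%, 19.2%, 16.8% and 18.4% in line 1 at CT22, CT26, CT30, CT34 and CT46, a mean of 19.2% ± 2.40 (SD, n = 5). Bmal1-/- had 12.8% and 13.6%, and line 2 had 8.0% and 9.60%. By share the 3 lines did not overlap in this window, and line 1 was highest at each time. Since the window was chosen for its line 1 share, that order is a description. It did not hold for the mean log2 ratio of the window, with arrays centred on their median. There line 1 spanned 0.59 to 0.91 and overlapped Bmal1-/-, whose CT22 array had 0.68. The Bmal1-/- array at CT34 was the highest, at 0.95.

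The share fell off unevenly on the 2 sides. The neighbour before it, chr3:87000001-88000000, had a line 1 mean of 6.03% ± 1.96 (SD, n = 5). The neighbours after it had 13.7% ± 4.84 (chr3:89000001-90000000) and 9.66% ± 3.24 (chr3:90000001-91000000). Then the share dropped in chr3:91000001-92000000 to 0%, 0%, 1.04%, 2.08% and 2.08% of 96 probes in line 1 and to 0% on both Bmal1-/- arrays, while line 2 had 5.21% and 4.17%. A count of 0 in 96 probes allows a share of up to 3.13%. In Bmal1-/- at CT22 the longest run of probes without a high one on chromosome 3, 227 probes from 90468811 to 92446114, covered this window.

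A second peak of chromosome 3 followed in chr3:95000001-96000000 and chr3:96000001-97000000, with line 1 means of 12.0% ± 2.72 and 12.4% ± 1.67 (SD, n = 5). Both were called at 4 of the 5 times of line 1. Their Bmal1-/- mean was 8.82% in each, and line 2 had means of 7.84% and 8.17%. The remaining windows among the 8 highest of chromosome 3 were weaker, with line 1 means of 8.10% ± 1.81 for chr3:104000001-105000000, 7.77% ± 2.08 for chr3:146000001-147000000 and 7.53% ± 2.18 for chr3:103000001-104000000. In 2 of these windows the Bmal1-/- mean lay above that of line 1. The window from 146000001 had 5.71%, 6.86%, 6.29%, 10.3% and 9.71% in line 1 and 13.7% and 11.4% in Bmal1-/-, and it was called on both Bmal1-/- arrays and at 1 time of line 1. The window from 103000001 had 5.19%, 10.4%, 5.84%, 7.14% and 9.09% in line 1 and 10.4% on both Bmal1-/- arrays, level with the highest line 1 array. The next windows below these had means of 7.52% and 7.11%.

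On chromosome 1 the leading window, chr1:89000001-90000000 with 149 probes, had 13.4%, 18.1%, 13.4%, 13.4% and 10.7% high probes in line 1 at the 5 times. It had 10.7% and 9.40% in Bmal1-/- and 7.38% and 6.04% in line 2. It belonged to a broad elevated stretch. Each of the windows from 88000001 to 94000000 had a line 1 mean above 8%, namely 9.78%, 13.8%, 11.4%, 8.38%, 9.94% and 10.7% in order of position. Just before this stretch, chr1:87000001-88000000 had 5.18% ± 2.71 (SD, n = 5) of 85 probes, and the 2 windows before that held under 20 probes each and gave no value.

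The second window of chromosome 1, chr1:59000001-60000000 with 159 probes, had the same mean in line 1 and Bmal1-/-. It had 11.3%, 14.5%, 10.7%, 11.3% and 11.9% in line 1, 11.9% on both Bmal1-/- arrays, and 4.40% and 8.81% in line 2. Its neighbour chr1:58000001-59000000 was more variable, with 13.9%, 6.25%, 9.72%, 9.03% and 13.2% in line 1. In chr1:74000001-75000000 the line 1 mean was 11.8% ± 1.59 (SD, n = 5), but Bmal1-/- had 6.96% and 7.59%, below each line 1 array. The window chr1:135000001-136000000 ran the other way, with 11.1%, 12.4%, 11.1%, 13.1% and 7.84% in line 1 and 11.8% and 15.7% in Bmal1-/-. The window chr1:182000001-183000000 had a line 1 mean of 10.6% ± 1.34 and 11.1% on each Bmal1-/- array, and was called at 2 times of line 1 and on both Bmal1-/- arrays. The windows just below the 8 highest, from 137000001 and 92000001, had means of 10.1% and 9.94%.

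**Figure D3:**
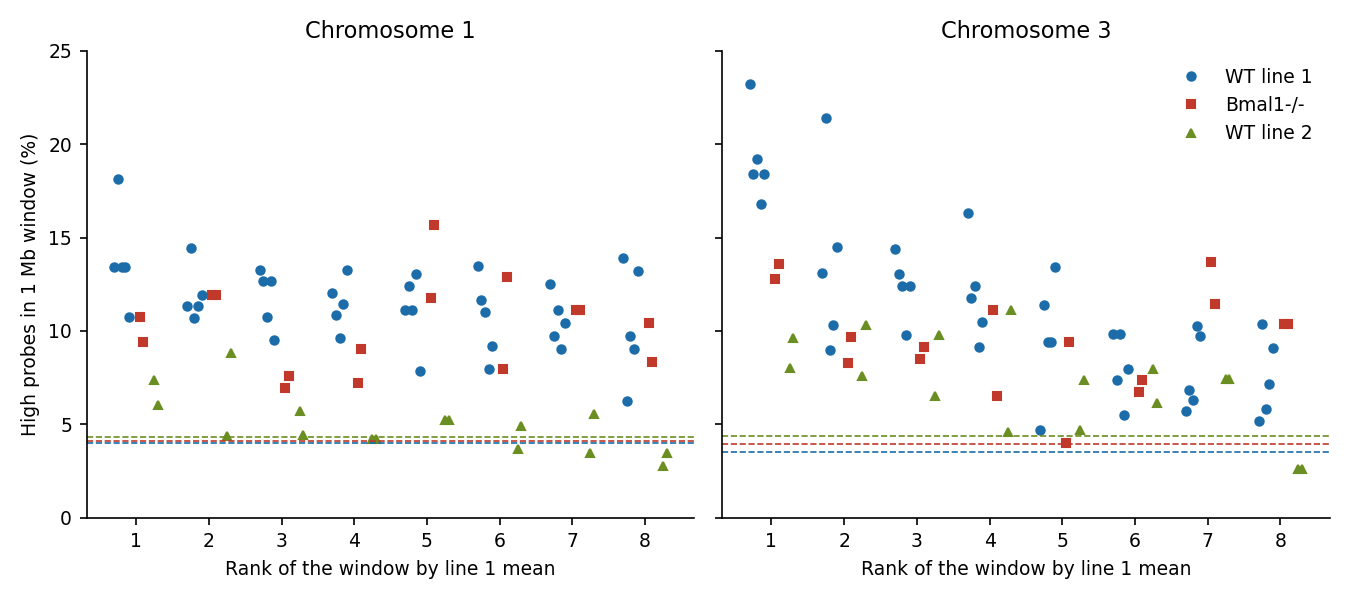
Share of high probes (%, vertical axis from 0) in the 8 windows of 1 Mb with the highest line 1 mean on chromosome 1 (left) and chromosome 3 (right), ordered by that mean. Each point is 1 array and dashed lines are each line's share over the whole chromosome. On chromosome 1 the line 2 points lie between 2.78% and 8.81%, and the first window of chromosome 3 reaches 23.2% in line 1.

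The arrays that did not choose these windows were read for the same windows. All 8 windows of chromosome 1 lay above the chromosome's own share on both Bmal1-/- arrays, where 81 and 69 of all 192 windows did, with a mean of 10.3% against 4.08%. On chromosome 3, 7 and 8 of the 8 windows did so at CT22 and CT34 of Bmal1-/-, where 66 and 63 of all 157 windows did, with a mean of 9.57% against 3.90%. In line 2, 4 and 6 of the 8 chromosome 1 windows lay above the chromosome share at CT22 and CT34. Of all 192 windows, 88 did so on each array, and the means were 4.97% against 4.34%. On chromosome 3, 7 of 8 did at each time of line 2, where 71 and 64 of all 157 windows did, with a mean of 7.11% against 4.38%.

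The windows of lowest mean over all 9 arrays were low in line 1 and Bmal1-/-. On chromosome 1 these were chr1:124000001-125000000, chr1:83000001-84000000 and chr1:101000001-102000000, with line 1 means of 1.27%, 0.649% and 1.26%, and Bmal1-/- means of 0.637%, 0.649% and 0.943%. On chromosome 3 they were chr3:43000001-44000000, chr3:17000001-18000000 and chr3:46000001-47000000, with line 1 means of 0.685%, 0.519% and 0.952%, and Bmal1-/- means of 0.685%, 0.325% and 0.680%. Line 2 means ran from 1.26% to 3.90%, the last for the window from 17000001 on chromosome 3, against that line's chromosome share of 4.38%. This window had no high probe among 154 on 4 arrays, where a count of 0 allows up to 1.95%. The 6 windows were chosen for their low values over all 9 arrays.

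Many neighbouring windows stayed below 5% together. A share under 5% on all 9 arrays was found in 111 of the 349 windows (31.8%), 57 on chromosome 1 and 54 on chromosome 3, against 25.1% of all windows off chromosome 7. Runs of at least 3 such neighbouring windows, called silent stretches, numbered 7 on chromosome 1 and 7 on chromosome 3. They covered 54 of 349 windows (15.5%), against 232 of 2050 windows (11.3%) on the other chromosomes off chromosome 7. Silence on this definition means fewer high probes than the genome off chromosome 7 and not an absence of signal. Chromosomes 20, 14 and 6 had longer stretches, of up to 10, 9 and 8 Mb.

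The longest stretch of each chromosome measured 7 Mb. On chromosome 1 it ran from 24000001 to 31000000 with 1031 probes, and had 1.94%, 0.873%, 1.65%, 2.23% and 1.94% high probes in line 1, 2.52% and 1.75% in Bmal1-/-, with 3.49% and 3.30% in line 2. On chromosome 3 it ran from 72000001 to 79000000 with 1015 probes, and had 1.77%, 1.18%, 0.985%, 1.87% and 1.58% in line 1, 2.17% and 2.07% in Bmal1-/-, with 3.25% and 3.55% in line 2. Both had their lowest mean in line 1, and the line 2 arrays lay above all other arrays. After 1 intervening window, a further stretch of chromosome 3 ran from 80000001 to 83000000 (1.96% ± 0.711 in line 1, SD, n = 5), and it ended 5 Mb before the strongest contact window.

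Shorter stretches had similar levels. On chromosome 1 these were 47000001 to 51000000 (1.15% ± 0.970 in line 1, SD, n = 5), 141000001 to 145000000 (1.45% ± 0.824), 123000001 to 126000000 (1.37% ± 0.721) and 146000001 to 149000000 (1.74% ± 0.788). On chromosome 3 they were 16000001 to 20000000 (1.41% ± 0.642), 45000001 to 49000000 (1.42% ± 0.285) and 23000001 to 26000000 (1.46% ± 0.616). In Bmal1-/- these 7 stretches had means from 1.61% to 2.48%, and in line 2 from 1.72% to 3.56%. The mean log2 ratio of line 1 over the 14 stretches, with arrays centred on their median, ran from -0.06 to 0.08.

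**Figure D4:**
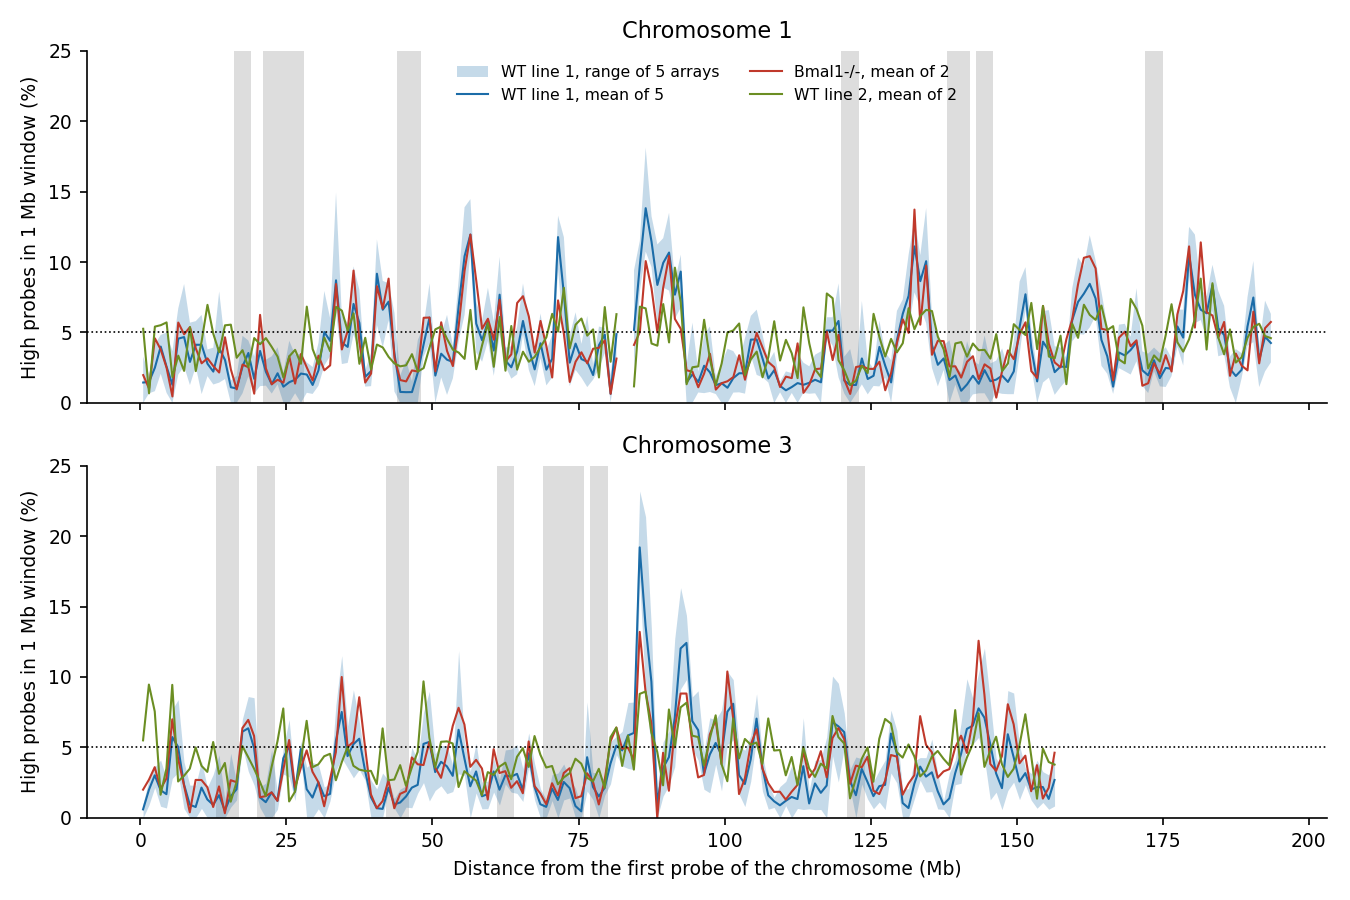
Share of high probes (%, vertical axis from 0) in windows of 1 Mb along chromosome 1 (top) and chromosome 3 (bottom), by distance from the first probe of the chromosome (Mb). Lines are means of 5 line 1, 2 Bmal1-/- and 2 line 2 arrays, the blue band is the range of line 1, the dotted line marks 5% and grey bands are the 14 silent stretches; narrow peaks of up to 19.2% (line 1 mean) stand between long low stretches.

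In segments of 10 Mb, chromosome 1 had its highest line 1 mean between 90000001 and 100000000 (6.66% ± 0.462, SD, n = 5) and its lowest between 110000001 and 120000000 (1.45% ± 0.456). Chromosome 3 had its highest between 90000001 and 100000000 (6.96% ± 0.422) and its lowest between 10000001 and 20000000 (1.46% ± 0.508). The lowest segment of each was also the lowest in Bmal1-/-, with 2.11% and 1.94%. The highest segments of line 1 ranked 6 of 20 (5.22%) and 4 of 16 (5.10%) in Bmal1-/-, whose highest lay between 180000001 and 190000000 on chromosome 1 (6.52%) and between 140000001 and 150000000 on chromosome 3 (5.77%). Line 2 spanned a narrower range, with 3.78% and 3.34% in the same 2 segments.

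The ends of the chromosomes were near or below the chromosome share in line 1. On chromosome 1 the first 10 Mb holding probes had a line 1 mean of 3.02% ± 0.724 and the last 10 Mb 4.07% ± 0.599 (SD, n = 5). On chromosome 3 the first 10 Mb had 2.64%, 2.41%, 2.64%, 2.64% and 2.56% in line 1, 3.32% and 2.94% in Bmal1-/-, with 5.13% and 4.90% in line 2, above that line's chromosome share. This end, the one nearest the centromere in mouse, was thus evenly low over the line 1 times, and line 2 lay above the other lines without overlap. The last 10 Mb of chromosome 3 had 2.84% ± 0.529 in line 1, and means of 4.04% in Bmal1-/- and 4.20% in line 2.

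At the level of single probes, most members were never high. Of 53858 probes, 41389 (76.8%) were high on none of the 9 arrays, against 72.6% on the other chromosomes off chromosome 7. At all 5 times of line 1, 74 probes (0.137%) were high, 43 on chromosome 1 and 31 on chromosome 3, against 0.264% elsewhere off chromosome 7. Of these 74, 58 were also high on both Bmal1-/- arrays and 11 on at least 1 line 2 array, while 1 probe of chromosome 3 was high on all 9 arrays. Elsewhere off chromosome 7, 668 of 823 such probes were high on both Bmal1-/- arrays and 108 on at least 1 line 2 array. The recurrent probes lay mostly outside the named peaks, since the 8 highest windows held 13 of the 43 on chromosome 1 and 2 of the 31 on chromosome 3. Those 8 windows held 12.0% and 15.9% of the line 1 high probes of the 2 chromosomes, in 4.15% and 5.06% of their probes.

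In line 1 the probe after a high probe was itself high 1.54 times as often as the chromosome's average on chromosome 1 (range 1.37 to 1.69, n = 5). On chromosome 3 it was 1.41 times (1.20 to 1.74), against 1.79 times (1.63 to 1.99) on the other chromosomes off chromosome 7. These ranges overlap, but on the same array chromosome 1 lay below the other chromosomes at each time. Chromosome 3 did so at all times but CT46, with 1.74 against 1.70. In line 2 the order of the means was the opposite, with 1.21 and 1.30 times on chromosomes 1 and 3 against 1.15 elsewhere. For chromosome 1 this held at CT22 (1.29 against 1.13) but not at CT34 (1.13 against 1.17). Chromosome 3 lay above elsewhere at both times (1.18 and 1.42). No difference was tested. In windows of 100 kb with at least 5 probes, 10 of 3470 had a line 1 mean above 20% (0.288%), against 2.37% elsewhere off chromosome 7. No high probe in any line 1 array was found in 19.6% of the 3470, against 15.7% elsewhere. The highest were chr3:88900001-89000000, with 31.7% ± 12.4 of 12 probes, and chr1:75000001-75100000, with 29.2% ± 10.0 of 13 probes (SD, n = 5). At 100 kb 1 probe moves a share by several points, so these 2 values are coarse.

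The window profile was shared by line 1 and Bmal1-/- and less by line 2. Over the 349 windows, Pearson's r between pairs of line 1 arrays had a median of 0.751 (0.704 to 0.781). It was 0.703 between line 1 and Bmal1-/- arrays, 0.730 between the 2 Bmal1-/- arrays, 0.637 between the 2 line 2 arrays and 0.344 between line 1 and line 2. On the 2050 windows of the other chromosomes off chromosome 7 the same medians were 0.852, 0.840, 0.837, 0.694 and 0.529. All arrays share the same probes, and neighbouring windows are not independent, so these are descriptions. The share of a window in line 1 was weakly related to its number of probes (r = 0.166 on chromosome 1 and 0.0957 on chromosome 3).

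**Figure D5:**
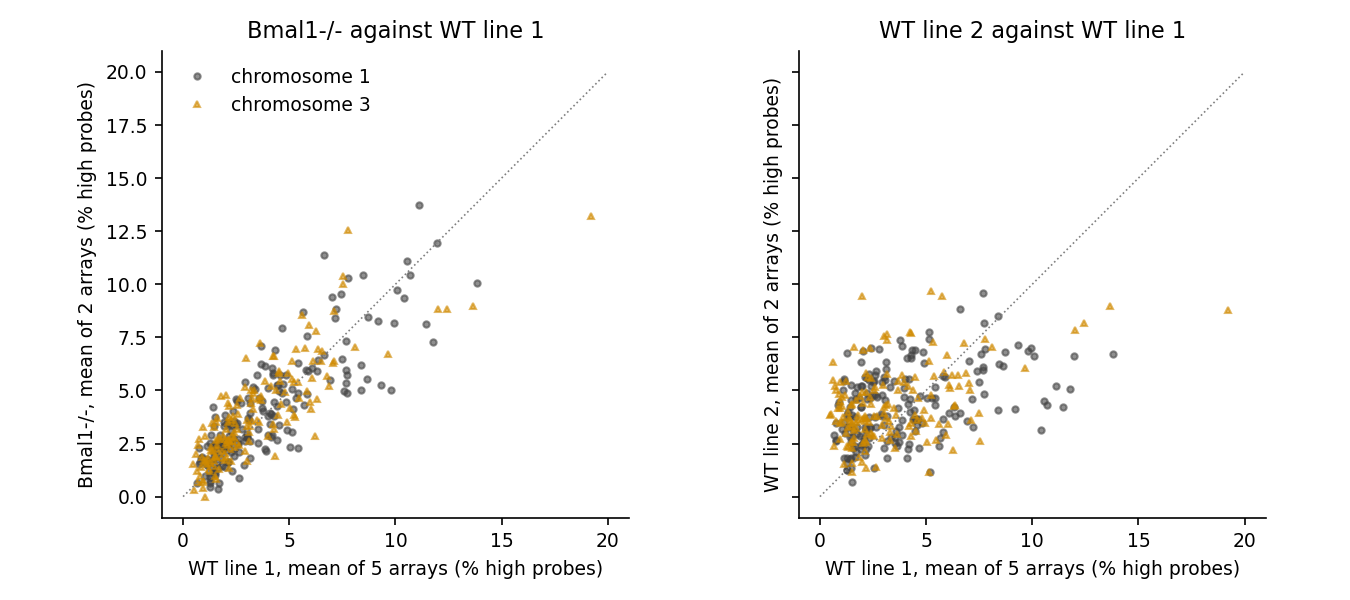
Share of high probes per 1 Mb window (%), mean of the 5 line 1 arrays on the horizontal axis against the mean of the 2 Bmal1-/- arrays (left) and of the 2 line 2 arrays (right) on the vertical axis, with equal scales and a dotted line of equality. Each point is 1 of 349 windows, circles on chromosome 1 and triangles on chromosome 3; on chromosomes 1 and 3 the plotted means have Pearson's r of 0.844 and 0.836 for Bmal1-/- and of 0.424 and 0.445 for line 2.

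Windows were then compared between conditions by their mean log2 ratio, with arrays centred on their median, in limma fits over all 2536 windows of the genome. Between WT CT22 and WT CT34 (n = 2 each, 1 array per line), 0 of the 349 windows passed an adjusted p of 0.05 (0.0% of all windows), and 0 had an unadjusted p under 0.05. This fit had no term for line, so the difference between the WT lines stayed in its error. Its counts of 0 therefore cannot show that no change is present. With the cell line as replicate block, 14 windows of the genome passed (0.552%), none of them on chromosomes 1 and 3. There, 12 windows (3.44%) had an unadjusted p under 0.05, 6 higher and 6 lower at CT34, against 7.14% of all windows. The smallest adjusted p on the 2 chromosomes was then 0.282 (limma). With limma's trend and robust options 0 windows of the genome passed, and 1 of the 349 had an unadjusted p under 0.05, against 0.434% of all windows.

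Windows and SEs named here for time come from the fit with no term for line. The window with the smallest p on chromosome 3, chr3:114000001-115000000, had mean log2 ratios of 0.08 (line 1) and -0.04 (line 2) at CT22, and -0.10 and -0.06 at CT34 (difference -0.10, SE 0.07). On chromosome 1 it was chr1:28000001-29000000, inside the 7 Mb silent stretch, with -0.06 and -0.03 at CT22 and 0.03 and 0.02 at CT34 (difference 0.07, SE 0.05). For the 16 highest windows the differences ran from -0.10 to 0.06, with 6 of 16 positive. In shares of high probes, 335 of 349 windows changed by at most 5 points between CT22 and CT34 in line 1, 348 in line 2 and 344 in Bmal1-/-. Across the 349 windows the changes in log2 ratio of the 2 WT lines had r = -0.06.

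Between Bmal1-/- (2 arrays) and WT (4 arrays at the same times, with circadian time as a term), 0 of 349 windows passed an adjusted p of 0.05 (0.0% of all windows), and the smallest adjusted p was 0.193 (limma). An unadjusted p under 0.05 was found in 89 windows (25.5%), all higher in Bmal1-/-, against 24.8% of all windows. The median difference in window means was 0.11 on the 2 chromosomes and 0.14 over all windows. With window medians it was -0.0125 and -0.005. Then 17 windows (4.87%) had an unadjusted p under 0.05, 2 higher and 15 lower in Bmal1-/-, against 10.6% of all windows, and 0 passed. After quantile normalization the median difference was -0.02 both on the 2 chromosomes and over all windows. There, 16 windows (4.58%) had an unadjusted p under 0.05, 9 higher and 7 lower, against 6.23% of all windows, and 0 passed. With limma's trend and robust options 51 of the 349 passed, all higher in Bmal1-/-, against 13.4% of all windows. In a fit of Bmal1-/- against all line 1 times, with no time term, 29 passed, against 9.46%. With line 1 at CT22 and CT34 as the only WT line and the time term kept, 0 windows of the genome passed. That fit left 1 residual degree of freedom per window. With both WT lines and a term for line 2, 0 passed as well.

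The windows with the smallest p for genotype were not among the contact peaks. The window chr3:56000001-57000000 had mean log2 ratios of 0.30 on both Bmal1-/- arrays, 0.09 and 0.05 in line 1 and 0.01 on both line 2 arrays at CT22 and CT34 (difference 0.26, SE 0.04). The window chr1:68000001-69000000 had 0.34 and 0.36 in Bmal1-/-, 0.09 and 0.07 in line 1 and -0.01 and -0.02 in line 2 (difference 0.31, SE 0.05). In both windows the Bmal1-/- arrays lay above the 4 WT arrays. For the 16 highest windows the mean log2 ratio was higher in Bmal1-/- by 0.23 to 0.40 than in WT, with adjusted p of 0.193 or more (limma). After quantile normalization 15 of the 16 were higher, with differences from -0.03 to 0.19, and 15 of 16 with window medians. The WT mean of these fits pools line 1 with line 2, whose log2 ratios were lower in the 16 windows. In the leading window of chromosome 3, Bmal1-/- had a mean of 0.81, line 1 at CT22 and CT34 had 0.81, and line 2 had 0.06. In that of chromosome 1 they had 0.68, 0.57 and 0.06. The part of the wider log2 spread of the Bmal1-/- arrays, given above, was not tested.

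The genotype by time interaction over the same 6 arrays gave 0 of 349 windows at an adjusted p of 0.05 (0.0% of all windows) and 0 at an unadjusted p under 0.05, against 0.434% of all windows. This fit had no term for line, so the difference between the 2 WT lines stayed in its error. Its counts of 0 therefore cannot show that no interaction is present. The smallest p on chromosome 1 was that of chr1:69000001-70000000, where the mean log2 ratio of Bmal1-/- was 0.20 at CT22 and 0.42 at CT34, line 1 had 0.07 and 0.05, and line 2 had 0.04 and 0.02 (interaction 0.24, SE 0.08). On chromosome 3 it was chr3:50000001-51000000, with 0.09 and 0.23 in Bmal1-/-, 0.04 and -0.03 in line 1, with 0.01 and -0.01 in line 2 (0.18, SE 0.08). Both had an adjusted p of 0.994 (limma).

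A 24 h rhythm over the 7 WT arrays, with line as a term, passed in 0 of 349 windows (0.0% of all windows), and the smallest adjusted p was 0.669 (limma). An unadjusted p under 0.05 was found in 16 windows (4.58%), against 6.43% of all windows. The smallest, for chr3:21000001-22000000, had mean log2 ratios of 0.30, 0.15, 0.10, 0.29 and 0.30 in line 1 at CT22, CT26, CT30, CT34 and CT46. It was lowest at CT30 and at like levels at CT22, CT34 and CT46. Among the contact peaks, chr1:90000001-91000000 had 0.46, 0.29, 0.35, 0.45 and 0.60 at the same times, lowest at CT26.

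Of the 5 comparisons, that of the 2 WT lines gave the most windows. The main fits for time, genotype and interaction had no term for line, so these counts are not directly comparable. Between line 1 and line 2 at CT22 and CT34 (2 arrays each, with time as a term), 142 of 349 windows passed an adjusted p of 0.05 (limma), 40.7% against 53.4% of all windows. Of these, 140 were higher in line 1, where 52.9% of all windows were, and 2 were lower, against 0.513%. The fit left 1 residual degree of freedom per window, so its error rests on a spread pooled over windows. The direction depended on the scaling of the arrays. Division by the median absolute deviation left 93 windows passing, all higher in line 1, against 39.4% of all windows. After quantile normalization 59 windows passed, 12 higher and 47 lower in line 1, against 25.8% of all windows, and the median difference on the 2 chromosomes went from 0.08 to -0.06. In shares of high probes per window 0 passed. There, 65 (18.6%) had an unadjusted p under 0.05, 15 higher and 50 lower in line 1, against 23.7% of all windows.

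The contact peaks had the smallest p. The window chr3:88000001-89000000 had mean log2 ratios of 0.91 and 0.71 in line 1 at CT22 and CT34 and 0.07 and 0.06 in line 2 (difference 0.75, SE 0.04). The window chr1:89000001-90000000 had 0.56 and 0.58 in line 1 and 0.08 and 0.03 in line 2 (difference 0.51, SE 0.04). All 16 highest windows were higher in line 1, by 0.19 to 0.75, and 15 of 16 after quantile normalization (-0.02 to 0.47), a direction that their choice by line 1 favours. The threshold of line 2, at 0.51 and 0.53, and its SD of log2 ratios were also below those of the other lines on the whole array, so array and line cannot be told apart here.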

How the data were processed

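Deposited ratios of Cy5 to Cy3 were read as log2, as NimbleScan usually writes them, since no header states the base. Per the file headers they had been shifted by a Tukey biweight mean. Background correction, filters and genome build: not given in the sources used here. Headers name the line 2 arrays 24 and 36 where labels give CT22 and CT34, and labels were followed. Window calls used a binomial test, and window means a fit with limma 3.58.1 in R 4.3.3 (lmFit, eBayes, two-sided, Benjamini-Hochberg over all windows, adjusted p under 0.05). The rest used Python 3.11.15 (scipy 1.17.1, numpy 2.4.6), and scripts were tested on simulated data.

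Replicate numbers name cell lines, which pairs WT CT22 with WT CT34: line differences at both times had r = 0.950 over all windows and 0.770 on chromosomes 1 and 3. Named windows were, per chromosome, the 8 with the highest line 1 mean, the 3 lowest over 9 arrays, the 5 longest silent stretches, the 3 smallest p per test (the text gives the first) and the first and last 10 Mb. Members and lists were chosen with earlier results of these data known. Lines are separate embryo cultures, and the number of arrays limits every comparison. Probe and genome sequences were not used here.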

Additional observations from a re-analysis of the deposited data

Results flagged for a closer look

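The change in the share of high probes from CT22 to CT34 had opposite signs in the genotypes on both chromosomes. On chromosome 1 it was -0.262 percentage points in the Bmal1-/- line, against 0.111 in WT line 1 and 0.0974 in WT line 2. On chromosome 3 it was -0.220 in Bmal1-/-, against 0.337 and 0.108. Each change comes from 1 array per time, and the difference between genotypes in these shares was not tested. The genotype by time interaction passed in 0 windows of either chromosome (limma). That fit used log2 ratios and had no term for line, so it does not decide this difference.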

How the results depend on the processing

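The mean line 1 shares of chromosomes 1 and 3 follow the threshold by construction: 8.29% and 7.47% above the 90th percentile, 0.761% and 0.737% above the 99th, and 2.85% and 2.55% above the 95th percentile over all probes. Leaving out 1 array gave 3.93% to 4.09% and 3.45% to 3.57%. Contact windows at all 5 times numbered 3, and 1 with windows of 500 kb, 0 with 100 kb, 1 at an adjusted p under 0.01, 11 at the 90th and 0 at the 99th percentile. Over the remaining 4 times they numbered 3 to 5, with 5 without line 1 CT34 or CT46. Silent stretches numbered 14 over 54 Mb, and 25 over 153 Mb in line 1 alone, or 4 over 14 Mb below 4%. Without 1 array they numbered 13 to 18 over 54 to 82 Mb, with 82 Mb without line 2 CT22. For genotype, 0 windows passed, but 51 with limma's trend and robust options and 29 over all line 1 times and Bmal1-/- with no time term. At CT22 and CT34, with line 1 as the only WT line or with a term for line 2, 0 passed. For the lines, 142 passed, but 59 after quantile normalization, 93 after division by the median absolute deviation, 0 in shares and 52 in 100 kb windows. Without 1 array, 0 windows passed for time, genotype, interaction and rhythm. The line fit without 1 array was not run, since no residual degree of freedom is left. Beyond the genome count given for time, the replicate block changed no call on either chromosome. With window medians, 2 named windows reversed: chr1:28000001-29000000 for time (-0.035) and chr3:136000001-137000000 for genotype (-0.020). The causes were not tested. Alternatives without 1 array for shares, stretches, interaction and rhythm were chosen after seeing the data.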
